A study of Mus musculus with 21 samples.

Results

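The genes described here are 6 receptors of natural killer (NK) cells, Klrd1, Klrc1, Klrk1, Klrb1c, Ncr1 and Klre1, and the 2 T-box transcription factors Eomes and Tbx21. They were taken by gene symbol, each had 1 probe set on the array, and they make up 8 of 19505 named genes. The tumours came from Hepa1-6 cells, a mouse hepatoma line, grown subcutaneously in C57BL/6J females that were 5 to 6 weeks old at injection. Once a tumour had grown to 200 mm3 the mouse was allotted at random to the combination of lenvatinib and anti-PD1 (n = 5), anti-PD1 alone (n = 5), lenvatinib alone (n = 5), or placebo, which was drug vehicle with polyclonal IgG (n = 6). Lenvatinib, an oral inhibitor of several receptor tyrosine kinases, was given at 10 mg/kg each day, and anti-PD1, the antibody clone J43 against the checkpoint receptor PD-1, at 10 mg/kg in 5 doses spaced 3 days apart. Tumours were taken on day 13, which was 1 day after the last antibody dose and 2 h after the last lenvatinib dose, and each gave RNA for 1 Clariom S mouse array. The line is grown under the skin and not in liver, so the liver's own lymphocytes are not part of this model. Of the hepatocyte lineage genes Alb, albumin, had a median log2 signal of 12.2 over the tumours (7.56 to 12.5) and Afp, alpha-fetoprotein, of 11.2 (3.75 to 11.9). The medians of the 12 measured genes of that list ran from 4.21 for Ahsg up to that of Alb. Serpina1a was at 4.70, Apoa2 at 5.47, Apoa1 at 5.64, Fgb at 8.76 and Trf at 11.1.

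NK cells are lymphocytes that kill stressed or transformed cells without a rearranged antigen receptor, and they read a balance of activating and inhibitory receptors. Klrd1 (CD94) pairs with Klrc1 (NKG2A) in an inhibitory receptor for the nonclassical molecule Qa-1, which H2-T23 encodes, while Klrk1 (NKG2D) and Ncr1 (NKp46) are activating receptors. Klrb1c is the NK1.1 antigen of C57BL/6 mice, and Klre1 is a lectin-like receptor of mouse NK cells. Eomes and Tbx21 (T-bet) direct NK cell development and maturation. Activated CD8 T cells also use Klrd1, Klrc1, Klrk1, Eomes and Tbx21, so in whole tumour tissue these transcripts do not mark 1 cell type.

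In the RefSeq annotation Klre1, Klrd1 and Klrk1 are consecutive protein-coding genes on chromosome 6, which also holds Klrc1 and Klrb1c. Ncr1 lies on chromosome 7, Eomes on chromosome 9 and Tbx21 on chromosome 11. The promoters of 4 receptor genes are shown. Of these Klrk1, Klrc1 and Klre1 had r between 0.63 and 0.82 with one another over the 21 tumours. The fourth, Ncr1, had r of at most 0.38 with any other member, but up to 0.60 on the 15 arrays with dimmer controls described below. Ncr1 also lay about the middle of the negative controls, and what this did to its r was not tested. Klrb1c, which had r = 0.74 with Klrk1, is not shown. Each is the 250 bases before the annotated start in RefSeq GRCm38.p6, 5′ to 3′ on the gene's strand, with the letters TGTGGT or their reverse complement ACCACA, the core of the RUNX motif, in capitals. Klre1 and Ncr1 have 2 entries each in that table, and the first is shown.
Klrk1, chr6:129623865-129624114, minus strand: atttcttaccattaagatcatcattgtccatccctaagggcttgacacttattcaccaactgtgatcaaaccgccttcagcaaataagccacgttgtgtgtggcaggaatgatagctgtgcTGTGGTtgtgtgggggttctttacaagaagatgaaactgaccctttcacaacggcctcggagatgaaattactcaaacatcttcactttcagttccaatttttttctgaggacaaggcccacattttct
Klrc1, chr6:129678974-129679223, minus strand: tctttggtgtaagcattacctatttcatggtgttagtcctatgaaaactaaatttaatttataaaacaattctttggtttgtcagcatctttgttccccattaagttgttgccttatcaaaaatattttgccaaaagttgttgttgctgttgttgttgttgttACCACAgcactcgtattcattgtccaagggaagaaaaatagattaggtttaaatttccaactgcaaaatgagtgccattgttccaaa
Klre1, chr6:129577963-129578212, plus strand: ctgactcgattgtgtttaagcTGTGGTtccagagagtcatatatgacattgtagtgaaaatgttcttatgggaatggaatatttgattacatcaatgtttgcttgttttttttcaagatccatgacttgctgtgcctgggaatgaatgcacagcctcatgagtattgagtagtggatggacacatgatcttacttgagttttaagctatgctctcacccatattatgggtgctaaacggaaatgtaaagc
Ncr1, chr7:4337465-4337714, plus strand: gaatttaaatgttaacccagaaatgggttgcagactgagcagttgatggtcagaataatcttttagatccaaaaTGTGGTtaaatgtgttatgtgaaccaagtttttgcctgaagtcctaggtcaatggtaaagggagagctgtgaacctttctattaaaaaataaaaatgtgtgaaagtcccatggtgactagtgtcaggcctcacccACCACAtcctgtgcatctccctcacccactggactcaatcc
These letters stood in the stretches of 5 of the 7 genes with a promoter entry (Klrc1, Klrk1, Klrb1c, Ncr1 and Klre1), against 14.0% of all 32851 promoter stretches of the same length. Klrd1 has no promoter entry, so the counts do not cover it. This motif was picked after 10 strings had been searched on both strands and their hits seen, so the count is a description of a chosen string. Of the others, TGTGGTT, which contains the chosen string, stood in 3 of the 7 genes and 4.40% of all stretches, GGAAGT and AGGAAG each in 2 (19.7% and 29.5%), TTCC in 5 (93.4%) and TCACAC in 1 (12.3%). The T-box letters TCACACC, searched also as their reverse complement GGTGTGA, stood in 0 of the 7 genes and 3.33% of all stretches, TTTCCGG in 0 (2.88%) and ACAGGAAGT in 0 (0.794%). The motif occurred in the stretch of Ncr1 as well as in the stretches of the other 3 genes shown.

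All values are log2 signals. The array carries 5222 negative-control rows, whose median was between 3.78 and 4.31 on the 21 arrays and whose 95th percentile was between 7.04 and 7.78. What these rows are is not stated in the sources used here, and they span a broad range, so the level they set is a loose one. A tumour's value was called near the negative-control level where it lay below that 95th percentile. By this rule Klrd1 was above the level in 5 of 21 tumours, Klre1 in 1 and the other 6 genes in 0. Against the negative-control median the genes separated further. Klre1 was above it in 21 tumours, Klrd1 in 20, Eomes in 19, Klrb1c in 18 and Klrc1 in 17, while Tbx21 was above it in 13, Ncr1 in 9 and Klrk1 in 8. Ncr1 therefore lay about the middle of the negative controls, at a median percentile of 49.1 among them, as did Klrk1 at 46.9 and Tbx21 at 53.3. By their level alone, values of these 3 genes could not be told from the middle of these controls. Over the tumours Klrk1 had r = 0.83 with the T cell score described below, Tbx21 0.53 and Ncr1 0.25. The 6 arrays with bright hybridization controls, over 11 on the log2 scale, were combination mouse 1, anti-PD1 mouse 1, lenvatinib mice 1 and 2 and placebo mice 4 and 6, and their signals were spread less widely (interquartile range 2.41 to 2.82, against 3.00 to 3.25 on the other 15).

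**Figure D1:**
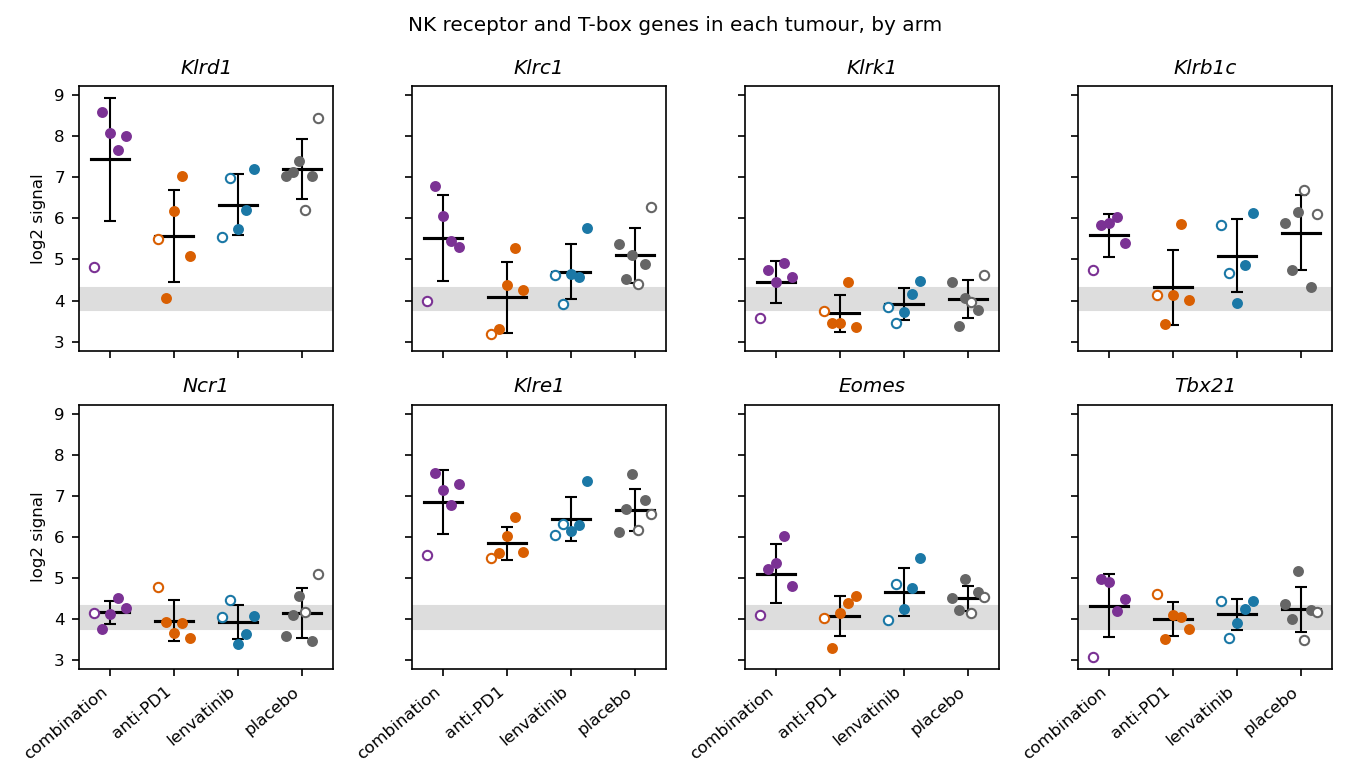
Log2 signal (vertical axis) of the 8 genes in each of the 21 tumours, by arm; black lines are arm means with SD, open circles are the 6 arrays with bright hybridization controls, and the grey band is the range of the negative-control median over the arrays. Klrd1 and Klre1 stand clear of the band in most tumours, while Klrk1, Ncr1 and Tbx21 lie in or about it.

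Klrd1, the CD94 subunit, varied most, with an SD over tumours of 1.22, and its signal was 4.82, 8.59, 8.07, 7.65 and 8.01 in combination tumours 1 to 5. It was 5.48, 4.07, 6.17, 7.03 and 5.08 in anti-PD1 tumours 1 to 5 and 5.55, 6.97, 5.73, 6.21 and 7.20 in lenvatinib tumours 1 to 5. In placebo tumours it had a lowest value of 6.20, a median of 7.08 and a highest of 8.44. Of the combination tumours 4 were higher than every anti-PD1 tumour, and combination mouse 1 was lower than 4 of the 5 anti-PD1 tumours, so the arms overlapped.

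Klrc1, the NKG2A partner of CD94, had 3.98, 6.79, 6.05, 5.44 and 5.31 in combination tumours 1 to 5 and 3.18, 3.32, 4.37, 5.28 and 4.25 in anti-PD1 tumours. It had 4.61, 3.91, 4.65, 4.57 and 5.77 in lenvatinib tumours and 4.41, 4.99 and 6.27 as the lowest, median and highest placebo values. Again combination mouse 1 was the low tumour of its arm, and the other 4 were above every anti-PD1 tumour.

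Klre1 had 5.56, 7.55, 7.14, 6.77 and 7.29 in combination tumours 1 to 5 and 5.49, 5.61, 6.02, 6.48 and 5.63 in anti-PD1 tumours. Lenvatinib tumours had 6.04, 6.33, 6.14, 6.29 and 7.37, and placebo tumours 6.13, 6.62 and 7.52 (lowest, median, highest). The low end of the range was held by combination mouse 1 and the anti-PD1 tumours other than mouse 4.

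Klrb1c, the NK1.1 antigen, had 4.75, 5.83, 5.89, 6.04 and 5.41 in combination tumours 1 to 5 and 4.14, 3.44, 4.15, 5.87 and 4.00 in anti-PD1 tumours. It had 5.84, 4.68, 3.94, 4.86 and 6.12 in lenvatinib tumours and 4.33, 6.00 and 6.69 in placebo tumours (lowest, median, highest). Anti-PD1 mouse 4 was the high tumour of its arm, inside the range of the other 3 arms.

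Eomes had 4.12, 5.22, 5.38, 6.03 and 4.82 in combination tumours 1 to 5 and 4.03, 3.31, 4.15, 4.40 and 4.58 in anti-PD1 tumours. Lenvatinib tumours had 3.98, 4.86, 4.24, 4.76 and 5.49, and placebo tumours 4.15, 4.53 and 4.98 (lowest, median, highest). The highest value was that of combination mouse 4, the tumour with the highest T cell and B cell scores described below.

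The 3 genes at the negative-control median had ranges over all tumours of 1.55 for Klrk1, 1.68 for Ncr1 and 2.11 for Tbx21, against 2.06 for Klre1. Klrk1 was between 3.58 and 4.90 in combination tumours, 3.35 and 4.44 in anti-PD1 tumours, 3.45 and 4.46 in lenvatinib tumours and 3.37 and 4.62 in placebo tumours. Ncr1 was between 3.76 and 4.52 in combination tumours, 3.54 and 4.80 in anti-PD1 tumours, 3.41 and 4.48 in lenvatinib tumours and 3.47 and 5.09 in placebo tumours. Tbx21 was between 3.08 and 4.97 in combination tumours, 3.52 and 4.61 in anti-PD1 tumours, 3.55 and 4.45 in lenvatinib tumours and 3.49 and 5.18 in placebo tumours. In each of them the arms overlapped throughout.

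The comparison of combination with anti-PD1 asks what adding lenvatinib to the antibody did. All 8 genes had a higher mean in combination tumours, as did 48.1% of all probe sets, but 0 of 8 passed the threshold of an adjusted p under 0.05 in limma, where 0% of 22206 probe sets passed. At an unadjusted p under 0.05, 6 of the 8 were higher (Klrd1, Klrc1, Klrk1, Klrb1c, Klre1 and Eomes), against 4.85% of all probe sets, and 0 were lower, against 2.79%. Klrd1 averaged 7.43 ± 1.49 in combination tumours and 5.57 ± 1.12 in anti-PD1 tumours (SD, n = 5 each), a log2 difference of 1.86 ± 0.61 (SE), or 3.64-fold, with a 95% interval of 0.60 to 3.13 and an adjusted p of 0.277. Klrc1 differed by 1.43 ± 0.48 (adjusted p = 0.293), Klrb1c by 1.26 ± 0.49 (adjusted p = 0.426), Eomes by 1.02 ± 0.32 (adjusted p = 0.251) and Klre1 by 1.01 ± 0.34 (adjusted p = 0.304). Klrk1 differed by 0.77 ± 0.28, Tbx21 by 0.32 ± 0.33 (0.16 without combination mouse 2, 0.63 without combination mouse 1) and Ncr1 by 0.20 ± 0.29 (0.096 without anti-PD1 mouse 5, 0.41 without anti-PD1 mouse 1). The median difference over the 8 genes was 1.02, against -0.011 over all probe sets tested, and 0 of the 8 had arms that did not overlap, against 0.527% of probe sets higher in this way.

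This result rested on which arrays were included. Without combination mouse 1, whose array had bright hybridization controls, 4 of the 8 genes passed (Klrd1, Klrc1, Klre1 and Eomes) together with 338 probe sets, and Klrd1 differed by 2.51 ± 0.49 (adjusted p = 0.0162). Over the 15 arrays with dimmer controls 1 gene passed, Klrd1 at 2.49 ± 0.50 (adjusted p = 0.0409), with 233 probe sets. The labels give no reason to leave that mouse out. With array weights, which count arrays with larger residuals less (0.37 for combination mouse 1 and 0.18 for anti-PD1 mouse 1), 4 genes passed (Klrd1, Klrc1, Klrk1 and Klre1) with 504 probe sets. Without combination mouse 1 and anti-PD1 mouse 2 together, an alternative added after the data were seen, Klrd1 passed at 2.14 ± 0.46 (adjusted p = 0.0477) with 86 probe sets. Without combination mice 3 and 4, whose tumours had the highest B cell scores, Klrd1 differed by 1.57 ± 0.73 (adjusted p = 0.758).

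Markers of other leukocytes moved the same way. Of 12 measured T cell markers, 12 had a higher mean in combination than in anti-PD1 tumours, with a median difference of 1.71 and an unadjusted p under 0.05 for 12, against 4.85% of all probe sets. Of 9 macrophage markers 9 were higher, 8 of them at that level (median 1.40), and of 9 B cell markers 9, with 7 at that level. Markers of other tissues were at 8 of 10 higher for skeletal muscle (median 0.41), 0 of 8 higher for adipocytes (median -1.17) and 3 of 12 higher for the hepatocyte lineage (median -0.27), with 0 higher at that level and 1 hepatocyte gene lower. The part of these markers in the members' differences was not tested. The covariate fits below cannot measure it, since their scores come from the same treated tumours. The T cell score, the mean of the centred markers, was between -0.46 and 1.92 in combination tumours, -1.81 and 0.04 in anti-PD1 tumours, -0.68 and 0.64 in lenvatinib tumours and -0.31 and 0.74 in placebo tumours. The T cell marker Cd3e was above the negative-control median in 21 tumours and Trat1 in 10. The macrophage score was between -0.78 and 1.43 in combination tumours, -1.33 and 0.49 in anti-PD1 tumours, -0.99 and 0.87 in lenvatinib tumours and -0.24 and 1.07 in placebo tumours. The B cell score was -0.38, 0.058, 1.41, 3.53 and 0.11 in combination tumours 1 to 5, so it was highest in mice 3 and 4. It was between -0.76 and 0.021 in anti-PD1 tumours, -0.81 and 0.45 in lenvatinib tumours and -0.48 and -0.006 in placebo tumours. With the T cell score as a covariate, an alternative added after the data were seen, 6 of the 8 differences between combination and anti-PD1 were below 0, among them Klrd1 at -0.18 ± 0.61, and the other two were Klrc1 at 0.043 ± 0.54 and Ncr1 at 0.024 ± 0.42. With the macrophage score as a covariate, also added later, 7 of the 8 stayed above 0, with Klrd1 at 0.44 ± 0.53 and Tbx21 at -0.28 ± 0.34. Both scores were measured in the same tumours and differed between the arms, and fewer cells of a type and less RNA per cell cannot be told apart in whole tissue.

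Anti-PD1 alone was compared with placebo. All 8 genes had a lower mean in anti-PD1 tumours (50.4% of probe sets), 0 of 8 passed (0% of probe sets) and 4 had an unadjusted p under 0.05 (Klrd1, Klrc1, Klrb1c and Klre1), against 2.68% of probe sets lower and 1.38% higher at that level. Klrd1 averaged 5.57 ± 1.12 in anti-PD1 tumours (n = 5) and 7.20 ± 0.73 in placebo tumours (n = 6), a difference of -1.64 ± 0.58 with an interval of -2.85 to -0.43 and an adjusted p of 1.00. Klrb1c differed by -1.33 ± 0.47 (adjusted p = 0.984), Klrc1 by -1.02 ± 0.46 and Klre1 by -0.81 ± 0.33, and Eomes by -0.42 ± 0.31, Klrk1 by -0.35 ± 0.27, Tbx21 by -0.24 ± 0.32 and Ncr1 by -0.20 ± 0.28. The last 4 moved by over 1.5 times when 1 mouse was left out, Eomes to -0.23 without anti-PD1 mouse 2, Klrk1 to -0.54 without anti-PD1 mouse 4, Tbx21 to -0.049 without placebo mouse 3 and Ncr1 to -0.0097 without placebo mouse 6. The T cell markers were lower for 12 of 12 (median -0.86) and the macrophage markers for 9 of 9 (median -1.06) in the same comparison.

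The other 4 pairs of arms gave smaller values for Klrd1. Between combination and lenvatinib all 8 genes were higher in combination tumours (48.8% of probe sets), 0 of 8 passed (0%) and 0 had an unadjusted p under 0.05 (3.87% of probe sets higher, 2.53% lower). With array weights Klrd1 passed, at 1.67 ± 0.42 (adjusted p = 0.0392), with 707 probe sets. In the fit without weights Klrd1 differed by 1.10 ± 0.61 (interval -0.17 to 2.36), or 1.75 without combination mouse 1, and Klrk1 by 0.53 ± 0.28. Between combination and placebo 7 of 8 were higher (49.3% of probe sets), 0 passed (0%) and 0 had an unadjusted p under 0.05 (1.01% of probe sets higher, 1.3% lower). Eomes differed by 0.60 ± 0.31 (interval -0.039 to 1.24), or 0.37 without combination mouse 4. Klrd1 differed by 0.23 ± 0.58, between -0.064 without combination mouse 2 and 0.88 without combination mouse 1, and Klrb1c by -0.068 ± 0.47, between -0.33 without placebo mouse 5 and 0.14 without placebo mouse 4. Between lenvatinib and placebo 7 of 8 were lower (50.9% of probe sets), 0 passed (0%) and 0 had an unadjusted p under 0.05 (4.05% of probe sets lower, 2.92% higher), and Klrd1 differed by -0.87 ± 0.58 (interval -2.08 to 0.34). Lenvatinib and anti-PD1 gave 7 of 8 higher in lenvatinib tumours (51.5% of probe sets), with 0 passing (0%) and 0 at the unadjusted level (1.55% of probe sets higher, 3.04% lower), and Klrd1 differed by 0.77 ± 0.61, or 0.39 without anti-PD1 mouse 2. These intervals include 0 but are wide enough to hold changes of over 1 log2 unit for Klrd1.

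**Figure D2:**
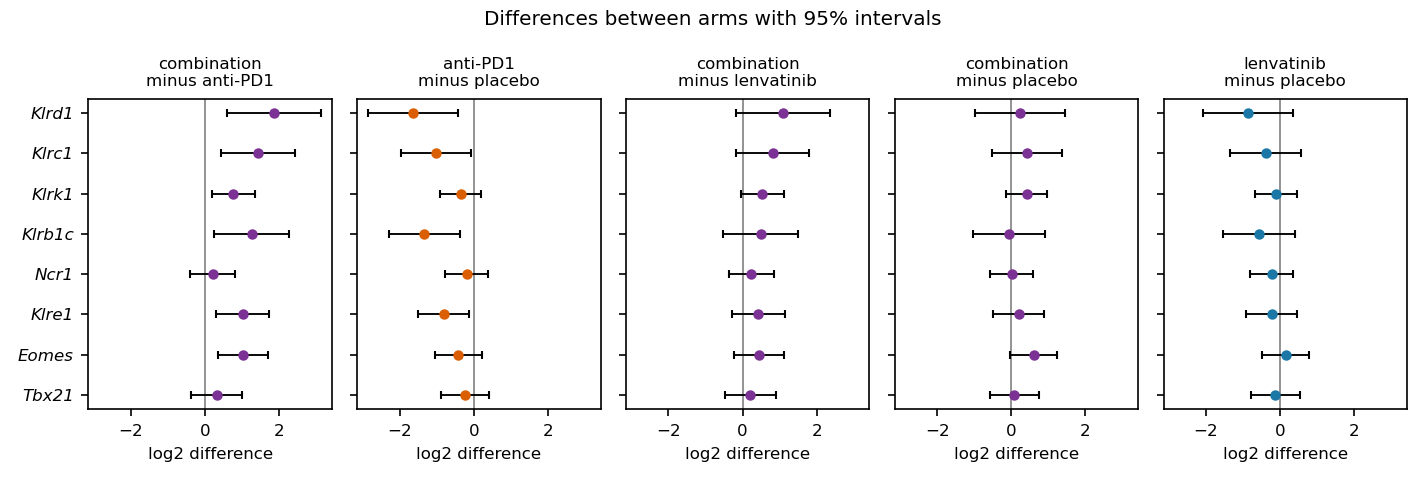
Log2 differences between arms (horizontal axis) for the 8 genes with 95% intervals from limma, in 5 comparisons. In combination minus anti-PD1 the intervals of Klrd1, Klrc1, Klrk1, Klrb1c, Klre1 and Eomes lie above 0 before adjustment for the 22206 probe sets, while in combination minus placebo and lenvatinib minus placebo all intervals cross 0.

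The interaction asks whether the effect of the pair of drugs differed from the sum of the 2 single ones. It was above 0 for 8 of 8 genes (48.9% of probe sets), with 0 passing (0% of probe sets) and 5 at an unadjusted p under 0.05 (Klrd1, Klrc1, Klrk1, Klrb1c and Klre1), against 5.7% of probe sets higher and 3.31% lower. Klrd1 had 2.73 ± 0.84 (adjusted p = 0.252), Klrc1 1.83 ± 0.66, Klrb1c 1.83 ± 0.67, Klre1 1.24 ± 0.47 and Eomes 0.87 ± 0.44. With array weights Klrd1 and Klre1 passed with 1691 probe sets, and without combination mouse 1 Klrd1 passed with 320. With the T cell score as covariate, added after the data were seen, it was below 0 for Klrk1, Klre1, Eomes and Tbx21, and Klrd1 had 0.078 ± 0.82. Over the 4 arms together the F test passed 0 of 22206 probe sets, with 5.69% at an unadjusted p under 0.05. The T cell markers had 12 of 12 interactions above 0 (median 2.13), the macrophage markers 9 of 9 (median 2.10), the skeletal muscle markers 10 of 10 (median 1.15) and the adipocyte markers 7 of 8 (median 0.48), while the hepatocyte lineage markers had 0 of 12 (median -1.48, 3 of them lower at an unadjusted p under 0.05). Since the same arms enter several comparisons, they are not independent of one another.

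The pathway genes around these receptors were described from lists. None of their members passed in any comparison, and the unadjusted counts follow, to be read against 48.1% of all probe sets higher in combination than in anti-PD1 tumours and 4.85% higher at an unadjusted p under 0.05. The 12 adaptor and signalling genes had 12 higher in combination than in anti-PD1 tumours, 11 of them at an unadjusted p under 0.05 (4.85% of probe sets, median 1.54), among them Hcst (DAP10, the adaptor of NKG2D) at 1.85 ± 0.40, Tyrobp (DAP12) at 1.72 ± 0.42 and Cd247 (the CD3 zeta chain) at 1.16 ± 0.25. Hcst averaged 7.24 ± 0.69 in combination tumours and 5.39 ± 0.49 in anti-PD1 tumours. Tyrobp is also expressed by macrophages and Cd247 by T cells. Of 10 cytotoxic effectors 10 were higher, 6 of them at that level (4.85% of probe sets, median 1.28), including Nkg7 at 1.77 ± 0.46, Cst7 at 1.77 ± 0.42, Ctsw (cathepsin W) at 1.30 ± 0.34 and Gzmb at 1.64 ± 0.59, while Prf1 (perforin) was at 0.66 ± 0.39, Ifng at 0.64 ± 0.41 and Gzma at 0.69 ± 0.55.

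Of 12 other NK cell surface genes 9 were higher in combination than in anti-PD1 tumours, 4 of them at an unadjusted p under 0.05 (4.85% of probe sets, median 0.33). Cd96, a receptor of NK and T cells, averaged 6.07 ± 1.01 in combination tumours and 4.13 ± 0.67 in anti-PD1 tumours (SD, n = 5 each), a difference of 1.94 ± 0.44. Slamf7, a SLAM family receptor, differed by 2.43 ± 0.81, and Fasl, the death ligand that T cells also use, by 0.84 ± 0.30.

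Of 7 measured ligand genes 5 were higher in combination than in anti-PD1 tumours (2 at the unadjusted level, 4.85% of probe sets). H2-T23, the Qa-1 ligand of CD94 and NKG2A, averaged 9.29 ± 0.28 in combination tumours and 8.49 ± 0.64 in anti-PD1 tumours, a difference of 0.80 ± 0.30. Cd48 differed by 1.58 ± 0.56, Clec2d by 0.64 ± 0.52 and the NKG2D ligand Ulbp1 by 0.35 ± 0.41. Of 14 cytokine and cytokine receptor genes 12 were higher (6 at that level). Il15, a survival cytokine of NK cells, differed by 0.96 ± 0.31 and its receptor chain Il2rb by 1.77 ± 0.75. Among 9 measured genes that T-box factors are known to bind or activate, 8 were higher (5 at the unadjusted level), Il12rb2 by 1.21 ± 0.34 and Il18r1 by 1.14 ± 0.47, and S1pr5 was at -0.45 ± 0.22. Most of them also stand in other lists, so these counts overlap. Ifng, Prf1 and Gzmb are also effectors, Il2rb, Il12rb2 and Il18r1 also cytokine receptor genes, and S1pr5 also a surface gene. Of 19 other lectin-like receptors, 0 were above the 95th percentile of the negative controls in any tumour, and 15 were higher in combination than in anti-PD1 tumours (1 at the unadjusted level, Klrb1a at 0.44 ± 0.16, median 0.26), a share close to the 4.85% of all probe sets. Klrg1 was at 0.32 ± 0.18 and Klri2 at 0.63 ± 0.31. Of 5 listed ILC1-associated genes 3 were measured, and all 3 were higher (2 at that level), Il7r at 2.64 ± 0.68, Cxcr6 at 1.46 ± 0.44 and Tnfsf10 (TRAIL), also a listed surface gene, at 0.50 ± 0.48. The 12 T cell markers were higher too, and which cells these 3 genes came from was not tested. Of 7 other transcription factors of the NK lineage 7 were higher (4 at that level), among them Ikzf3 (Aiolos) at 1.33 ± 0.50, Id2 at 0.93 ± 0.39 and Tox at 0.67 ± 0.36.

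Over the 21 tumours the genes other than Ncr1 varied together. Pearson r was between 0.039 and 0.85 over the 28 pairs, and 20 pairs had an adjusted permutation p under 0.05, none of them with Ncr1. Klrd1 with Klrc1 had r = 0.85 and Spearman rho = 0.87 (adjusted permutation p = 9.33e-05 and 7e-05), and 0.82 without anti-PD1 mouse 2 and combination mouse 1, the tumours farthest from the median. Klrd1 with Klre1 had r = 0.85, and Klrk1 with Klrc1 r = 0.82. After each value was centred on its arm mean, 10 of the 28 pairs kept an adjusted p under 0.05. Within the 15 arrays with dimmer controls 23 pairs did, and within the 6 with bright controls 0 did, where r was between -0.27 and 0.89. Ncr1 had r between 0.039 and 0.38 with the other 7 genes, and between -0.097 and 0.33 after centring. Within the 15 dimmer-control arrays it had r between 0.26 and 0.60, and 2 of its pairs had an adjusted permutation p under 0.05, with Klrb1c (r = 0.60, adjusted permutation p = 0.0264) and Klre1 (r = 0.57, adjusted permutation p = 0.0355).

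**Figure D3:**
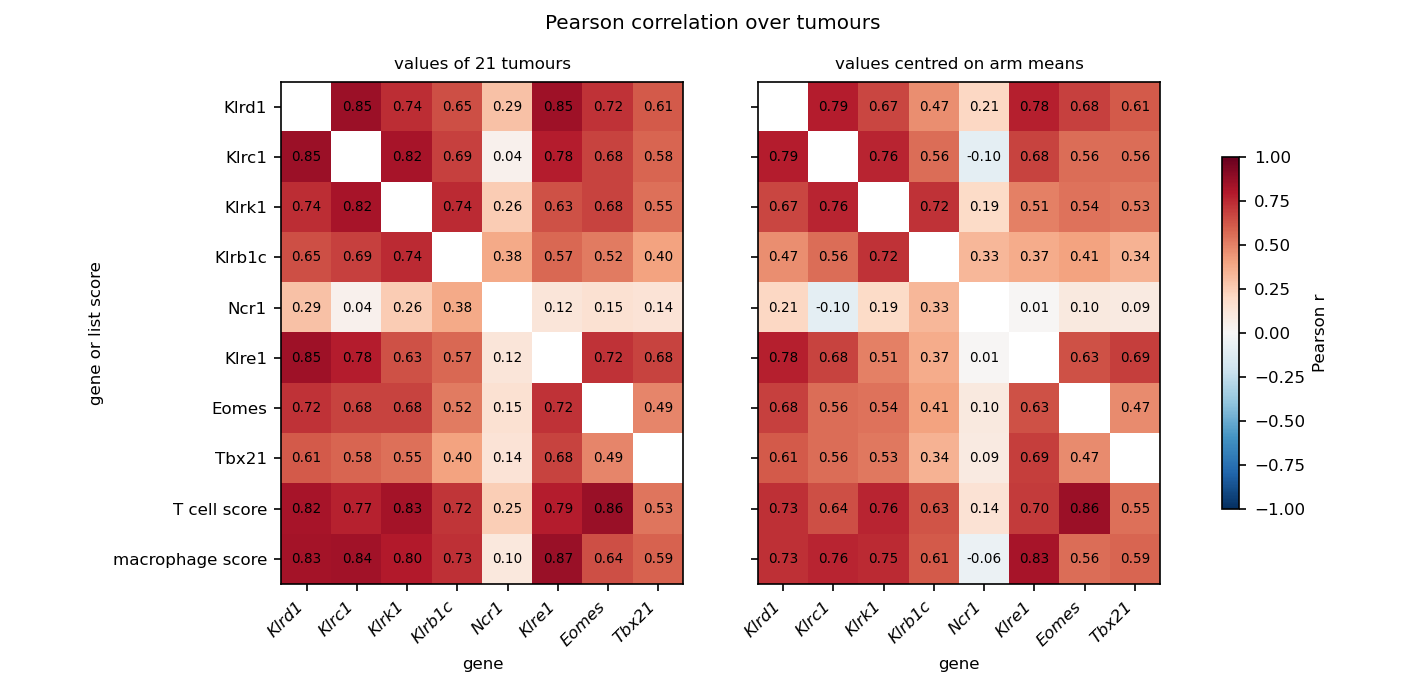
Pearson r over 21 tumours between the 8 genes, and between each gene and the T cell and macrophage scores, for the values (left) and for the values centred on arm means (right); red is positive and blue is negative. The row and column of Ncr1 are pale in both, at most 0.38 with another gene.

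The T cell score had r between 0.53 and 0.86 with the 7 genes other than Ncr1, each with an adjusted permutation p under 0.05 over 8 relations. Eomes had r = 0.86 (rho = 0.77, adjusted permutation p = 4e-05), Klrk1 0.83, Klrd1 0.82, Klre1 0.79, Klrc1 0.77, Klrb1c 0.72 and Tbx21 0.53. Ncr1 had r = 0.25 (rho = 0.27, adjusted permutation p = 0.281). Without combination mouse 4 and anti-PD1 mouse 2 the values were 0.72 for Eomes, 0.82 for Klrd1 and 0.57 for Tbx21. After centring on arm means 7 genes stayed under 0.05 adjusted, with Eomes at 0.86 and Klrd1 at 0.73. Within the dimmer-control arrays all 8 did, Ncr1 included at r = 0.59 (adjusted permutation p = 0.0199). Within the 6 bright-control arrays, too few for a firm test, r was 0.66 for Klrd1, 0.78 for Klrc1, 0.77 for Klrk1, 0.78 for Klrb1c and 0.65 for Klre1, and 0.30 for Ncr1, 0.25 for Eomes and -0.25 for Tbx21. The macrophage score gave r between 0.59 and 0.87 for the 7 genes and 0.10 for Ncr1. With it Klre1 had r = 0.87, Klrc1 0.84, Klrd1 0.83, Klrk1 0.80, Klrb1c 0.73, Eomes 0.64 and Tbx21 0.59. Eomes was thus lower than with the T cell score, also after centring (0.56), and Klre1 higher (0.83 after centring). The 2 scores themselves had r = 0.86 over the 21 tumours, so these relations share their tumours.

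**Figure D4:**
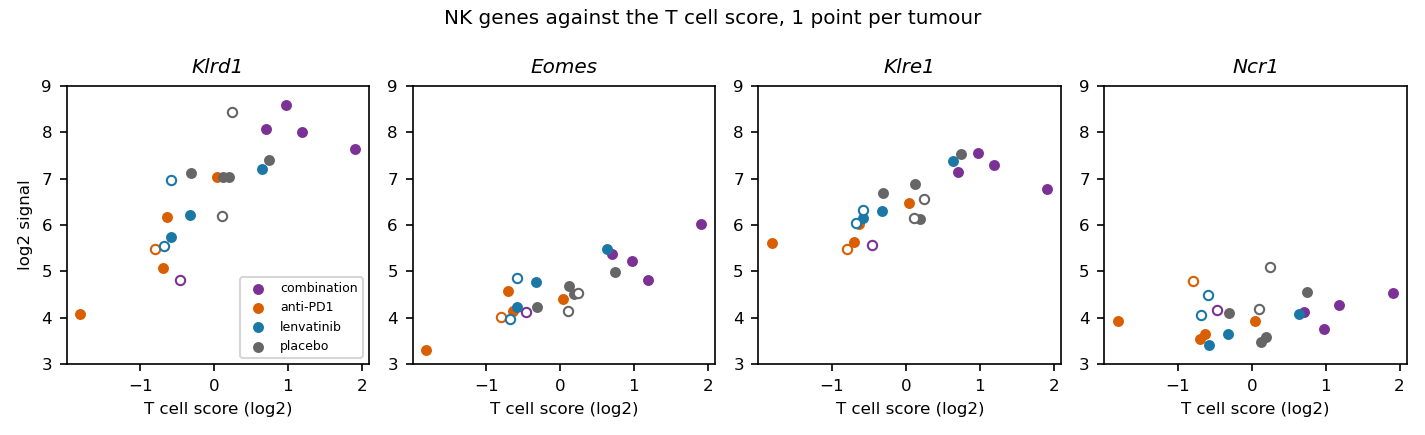
Log2 signal of Klrd1, Eomes, Klre1 and Ncr1 (vertical axis) against the T cell score (horizontal axis, mean centred log2 signal), 1 point per tumour, coloured by arm, with open circles for the 6 bright-control arrays. Klrd1, Eomes and Klre1 rise with the score, with r of 0.82, 0.86 and 0.79, and r for Ncr1 is 0.25.

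The named genes whose signal was most like each member's over the 21 tumours, by Pearson r among 19497 genes, were Cd3g (0.90), Il7r and Ms4a4b for Klrd1, Cd53 (0.89), Ms4a4b and Tec for Klrc1, and Arhgap15 (0.93), Gcnt1 and Ms4a4b for Klrk1. For Klrb1c they were Btk (0.86), Marchf1 and Cd84, and for Klre1 Cd200r4 (0.93), Prkcd and Batf3. Those of Eomes were Zap70 (0.89), Il21r and Slamf6, those of Tbx21 Stk32c (0.77), Gatm and Nlrp3, and those of Ncr1 Ccdc17 (0.79), BC147527 and Mrps18c. The median r over all genes was -0.047 for Klrd1 and 0.059 for Ncr1. After centring on arm means the first of each list was Phf11a for Klrd1 (0.87), Ms4a4b for Klrc1 (0.85), Arhgap15 for Klrk1 (0.90), Marchf1 for Klrb1c (0.92), Prkcd for Klre1 (0.90), Zap70 for Eomes (0.88), Gatm for Tbx21 (0.83) and Rtp2 for Ncr1 (0.83).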

How the data were processed

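The 21 tumours were hybridized to Clariom S mouse arrays, 1 per mouse. Per the submitters' processing notes, the authors deposited log2 signals made by RMA (oligo), with versions unnamed. Genome build and annotation are not stated in these sources. RMA corrects background and scales arrays to one another, so levels are relative within the set, but the deposited interquartile ranges still differed between arrays (2.41 to 3.25). Arms came from the treatment labels. The p-values of the arm comparisons set a difference against the spread between mice within arms, which with 1 array per mouse also holds differences between arrays.

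Of 29129 rows, 6923 were controls and were not tested, and the other 22206 probe sets were fitted in limma 3.58.1 (R 4.3.3), with lmFit and eBayes on 4 arm means, 6 pairs of arms and the interaction, two-sided, adjusted by Benjamini-Hochberg over all probe sets. The script was tested on simulated data. Correlations used 100000 permutations, exact for 6 arrays and within arm after centring (numpy 2.4.6, scipy 1.17.1). Precision is limited by the number of arrays, which carry no depth.

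The members, the lists and the motif were chosen with earlier results of these data known. All 8 members are named, with, of each other list, the 3 genes with the smallest F-test p and a fixed set (ligands, adaptors, effectors). Genes of the lists not matched to a named probe set are not analysed here. Alternatives were a filter on dim probe sets, cyclic loess, trended robust eBayes, array weights, covariates for hybridization controls and muscle score, a replicate block, arrays or mice left out, and adjusted p under 0.1. After the data were seen, covariates for the T cell and the macrophage score, leaving out combination mouse 1 with anti-PD1 mouse 2, and the macrophage correlations were added.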

Additional observations from a re-analysis of the deposited data

Results flagged for a closer look

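In combination mouse 1 Klrd1 was at 4.82, against 7.65 to 8.59 in the other 4 tumours of the arm, a gap of 0.752 of the arm's range. In lenvatinib mouse 5 Klre1 was at 7.37, against 6.04 to 6.33 in the other 4, a gap of 0.788. Both gaps exceed Dixon's limit at 95% confidence, and 32 groups of 1 gene in 1 arm were tested in this way, of which chance marks about 1 in 20.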

How the results depend on the processing

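Of 1813 recomputed log2 differences of members, 1713 kept their direction and their side of the threshold, 85 changed direction and 15 crossed the threshold upward. The 1713 include cases whose direction could not change. A left-out mouse of an arm outside the comparison leaves the difference as it was, and so does trended robust eBayes. With array weights, 1 member and 707 probe sets passed in combination against lenvatinib, 4 and 504 in combination against anti-PD1, and 2 and 1691 in the interaction. With the dimmer-control arrays only, 1 member and 233 probe sets passed in combination against anti-PD1. Without combination mouse 1 and anti-PD1 mouse 2, 1 and 86 passed there and 1 and 258 in the interaction. With 1 mouse left out, between 0 and 4 members passed in combination against anti-PD1 and between 0 and 1 in the interaction. The probe sets that passed numbered 0 to 338 for combination against anti-PD1 (338 without combination mouse 1, 87 without anti-PD1 mouse 4), 0 to 320 for the interaction (320 without combination mouse 1, 81 without lenvatinib mouse 5, 7 without anti-PD1 mouse 4) and 0 to 1 for combination against lenvatinib. 

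The labels name no block for same-numbered mice. Of 30 such pairs 15 had r over 0.1, and r was between -0.63 and 0.56. Mouse 1 of lenvatinib, of anti-PD1 and of combination all had bright-control arrays, with r among them of 0.56, 0.38 and 0.27. Pairs with unlike numbers were not compared. With the replicate block, in which placebo mouse 6 is alone in its block and adds nothing, 0 members passed in each of the 7 contrasts, and these differences changed direction: lenvatinib against placebo (Klrk1 0.0041), combination against placebo (Klrb1c 0.024). Both are the values without placebo mouse 6, since every other block holds 1 mouse of each arm and leaves the differences as they were. Differences also changed direction with array weights in lenvatinib against placebo (Klrk1 0.046), combination against placebo (Klrb1c 0.23), with dimmer arrays in lenvatinib against placebo (Klrc1 0.023, Klrk1 0.20), combination against placebo (Klrb1c 0.52), with the muscle score in combination against placebo (Ncr1 -0.083), lenvatinib against anti-PD1 (Ncr1 0.023), without combination mice 3 and 4 in combination against placebo (Klrd1 -0.063, Ncr1 -0.095, Tbx21 -0.070), and without combination mouse 1 and anti-PD1 mouse 2 in combination against placebo (Klrb1c 0.14), lenvatinib against anti-PD1 (Tbx21 -0.014). With the T cell score as covariate 31 did: lenvatinib against placebo (Klrc1 0.021, Klrk1 0.16, Klre1 0.092, Tbx21 0.11), anti-PD1 against placebo (Klrk1 0.19, Eomes 0.29, Tbx21 0.23), combination against placebo (Klrd1 -0.62, Klrc1 -0.16, Ncr1 -0.066, Klre1 -0.24, Tbx21 -0.25), combination against lenvatinib (Klrd1 -0.36, Klrc1 -0.18, Klrk1 -0.12, Klrb1c -0.49, Klre1 -0.33, Eomes -0.41, Tbx21 -0.36), combination against anti-PD1 (Klrd1 -0.18, Klrk1 -0.15, Klrb1c -0.13, Klre1 -0.046, Eomes -0.19, Tbx21 -0.48), lenvatinib against anti-PD1 (Klrk1 -0.028, Tbx21 -0.12), the interaction (Klrk1 -0.31, Klre1 -0.14, Eomes -0.70, Tbx21 -0.59). With the macrophage score as covariate 18 did: lenvatinib against placebo (Klrc1 0.24, Klrk1 0.23, Klre1 0.26, Tbx21 0.20), anti-PD1 against placebo (Klrk1 0.16, Eomes 0.031, Tbx21 0.25), combination against placebo (Klrd1 -0.026, Tbx21 -0.022), combination against lenvatinib (Klrc1 -0.029, Klrb1c -0.19, Klre1 -0.21, Tbx21 -0.22), combination against anti-PD1 (Tbx21 -0.28), lenvatinib against anti-PD1 (Tbx21 -0.052), the interaction (Klrk1 -0.092, Klre1 -0.12, Tbx21 -0.48). With 1 mouse left out the ranges that crossed 0 were Ncr1 in combination against placebo (-0.13 to 0.19), Tbx21 in lenvatinib against placebo (-0.28 to 0.060), Klrb1c in combination against placebo (-0.33 to 0.14), Tbx21 in combination against placebo (-0.076 to 0.40), Klrk1 in lenvatinib against placebo (-0.25 to 0.0052), Ncr1 in lenvatinib against anti-PD1 (-0.17 to 0.18), Eomes in lenvatinib against placebo (-0.054 to 0.32), Tbx21 in lenvatinib against anti-PD1 (-0.014 to 0.26), Klrd1 in combination against placebo (-0.064 to 0.88). Of the 56 member differences, 38 moved by over 1.5 times or changed sign without some 1 mouse, 2 of 8 in combination against anti-PD1 and in the interaction, and 8 of 8 in combination against placebo and lenvatinib against anti-PD1. Other than for the replicate block, the cause of these changes was not tested.

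The count of member pairs with an adjusted p under 0.05 was 20, against 10 after centring on arm means and 0 in the 6 bright-control arrays, where the counts for the T cell and macrophage scores were also 0 and which are too few for a lost call to say that a relation is weaker. The correlation of Klrc1 and Ncr1 was -0.12 without the 2 farthest tumours and -0.097 after centring, and that of Ncr1 and the macrophage score -0.058 after centring. In the bright-control arrays it was -0.16 for Klrb1c and Ncr1, -0.066 for Klrb1c and Eomes, -0.063 for Klrb1c and Tbx21, -0.27 for Eomes and Tbx21, and -0.25 and -0.22 for Tbx21 with the T cell and macrophage scores. The filter on dim probe sets, with its cut-off at percentile 40, removed Klrc1, Klrk1, Ncr1, Eomes and Tbx21 and gave no value for them. Each of these had 32 recomputed differences per comparison, against 33 for Klrd1, Klrb1c and Klre1, which were kept. Klrc1 and Eomes, which passed in combination against anti-PD1 without combination mouse 1, were therefore not tested under this filter. Klrk1, Ncr1 and Tbx21 lay closest to the negative-control median, and what this did to their differences and correlations was not tested.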
